A study of Mus musculus with 5 samples.

Results

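The calcium/calmodulin-dependent kinases (CaMK) were examined across hippocampal RNA libraries from an untreated control and from mice after seizures. The members are 10 genes whose symbol matched a set list, Camk2a, Camk2b, Camk2d, Camk2g, Camk4, Camk1, Camk1d, Camk1g, Camkk1 and Camkk2, out of 55385 genes counted in each library. All 10 passed the filter on low counts, which left 19768 genes for testing.

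Hippocampi came from 3-month-old male C57/bl6 mice in 4 conditions, with 5 libraries in all. The control (1 library) was untreated and had not been injected with vehicle. The other mice received kainic acid, an agonist of glutamate receptors, at 20 mg/kg into the peritoneum, and tissue was taken 1 h (1 library), 4 h (2 libraries, replicate 1 and replicate 2) or 8 h (1 library) after seizures began. Only animals that reached seizure stage 5 of the study's behavioural scale were used. Depth on genes was 19100374 counts for the control, 17744508 for 1 h, 18250114 and 19109204 for the 4 h pair and 16612225 for 8 h. Sources used here do not say how many mice went into each library, so p values measure the spread between these libraries, and only the pair at 4 h gave that spread. The libraries at 1 h, at 8 h and of the control were assumed to vary like this pair. In tissue RNA, fewer cells of a type and less RNA per cell cannot be told apart.

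CaMK proteins are serine/threonine kinases that calcium-loaded calmodulin switches on. The 4 Camk2 genes encode the subunits of CaMKII, a ring-shaped holoenzyme that is abundant at excitatory synapses and is known for its part in long-term potentiation. Camkk1 and Camkk2 encode the upstream kinases that phosphorylate the CaMKI enzymes (Camk1, Camk1d, Camk1g) and the nuclear kinase CaMKIV (Camk4), so that calcium signals pass through a cascade.

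The labels were first checked on genes that neuronal activity induces. Fos was at 10.8 normalized CPM (gene counts scaled to a common library size) in the control, then 999 at 1 h, 519 and 70.4 at 4 h, with 17.2 at 8 h. The summed CPM of the 4 activity markers Fos, Arc, Npas4 and Egr1 was 191 in the control, then 3930 at 1 h, 3341 and 1034 at 4 h, with 193 at 8 h. All 4 were above the control at 1 h and in replicate 1 at 4 h. In replicate 2 the sum was mostly Arc (928 CPM against 148 in the control), while Npas4 (4.92 against 3.92 CPM) and Egr1 (30.9 against 29.1 CPM) were near the control. At 8 h the sum was near that of the control and was mostly Arc (152 CPM). Fos was then past 1.5-fold above the control (17.2 against 10.8 CPM) and Egr1 past 1.5-fold below it (19.1 against 29.1 CPM).

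Camk2a encodes the alpha subunit of CaMKII, the most abundant subunit of forebrain excitatory neurons. Its level was 1436 CPM in the control (exact Poisson 95% interval 1419 to 1453), then 1435 at 1 h, 1218 and 1348 at 4 h, with 1294 at 8 h. Intervals of this kind cover counting error only. The 1 h library equalled the control within counting error, and the 3 later libraries lay below it, at 84.8%, 93.9% and 90.1% of the control. Its log2 fold change was -0.16 at 4 h (SE 0.168, adjusted p = 0.731 by the quasi-likelihood test of edgeR with Benjamini-Hochberg adjustment) and -0.15 at 8 h (SE 0.196).

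Camk2b, the gene of the beta subunit, which binds actin and tethers the holoenzyme to the cytoskeleton, was at 981 CPM in the control, then 1074 at 1 h, 764 and 882 at 4 h, with 935 at 8 h. It was above the control at 1 h and below it in both 4 h libraries. At 4 h its log2 fold change was -0.25 (SE 0.175), with an adjusted p of 0.613 by edgeR's quasi-likelihood test.

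Camk2d encodes the delta subunit, known above all from heart muscle and also made in the brain. Its level was 76.1 CPM in the control (1514 counts), then 72.8 at 1 h, 101 and 67.2 at 4 h, with 37.4 at 8 h (656 counts). The 8 h library stood lowest, at 49.2% of the control (exact binomial 95% interval 44.8% to 54.0%). The 4 h libraries lay on opposite sides of the control, at 133% and 88.4%, and were farther apart than for any other member. At 8 h its log2 fold change was -1.02 (SE 0.322), with an unadjusted p of 0.0220 in edgeR's fit across all genes and an adjusted p of 1.00. With no filter on low counts the same comparison passed the threshold (log2 fold change -1.04, adjusted p = 0.00936 by edgeR), and no other setting tried called it. That setting called 279 genes at 8 h, against 0 in the main fit, so the call was not particular to Camk2d.

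Camk2g encodes the gamma subunit, which is known to carry calmodulin from the membrane to the nucleus of excitatory neurons. It was at 173 CPM in the control, then 195 at 1 h, 127 and 113 at 4 h, with 106 at 8 h. The 3 later libraries were all below the control, at 73.2%, 65.5% and 61.2% of it, and the 1 h library was above it at 113%. The 4 h mean was 120 CPM with an SD of 9.51 (n = 2), and the replicates were 1.12-fold apart. The log2 fold change was -0.53 at 4 h (SE 0.166, unadjusted p = 0.0221 and adjusted p = 0.363 by edgeR) and -0.71 at 8 h (SE 0.197, unadjusted p = 0.0136 and adjusted p = 0.996 by edgeR). Camk2g thus had the smallest unadjusted p of the 10 members when the 3 time points were tested together (0.0114, adjusted p = 0.442 by edgeR), but did not pass the threshold.

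**Figure D1:**
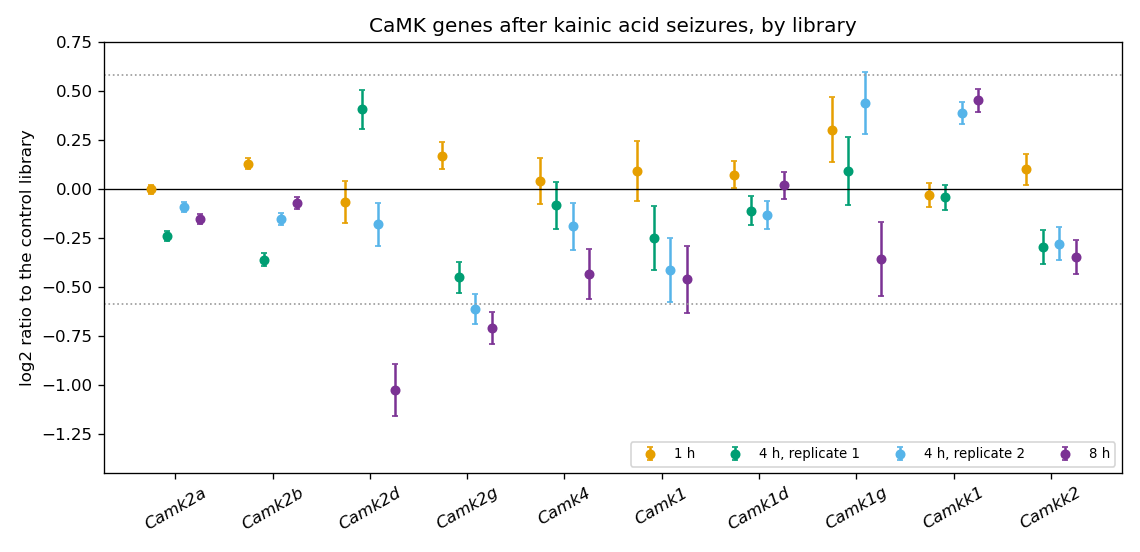
Log2 ratio of normalized CPM to the control library for the 10 CaMK genes in the 4 kainic acid libraries, with exact binomial 95% intervals that cover counting error only. Dotted lines mark a 1.5-fold difference. Camk2g (61.2% of the control) and Camk2d (49.2%) lie below the lower line at 8 h, as does Camk2g in replicate 2 at 4 h (65.5%), and Camkk1 lies above 0 in replicate 2 at 4 h and at 8 h.

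The CaMKII genes carry, after the kinase domain, the threonine codon whose autophosphorylation makes the kinase independent of calcium, and the sequence around it is printed to show how alike the genes are where reads have to be told apart. The stretches are given for 3 of the 4 CaMKII genes, with Camk2a left out. They come from the longest complete coding sequence of each gene in GENCODE M21 (GRCm38), lie inside exon 11 in each case, and have the threonine codon in capitals. It is codon 287 of Camk2b (chr11:5988973-5989011, minus strand), codon 287 of Camk2d (chr3:126797729-126797767, plus strand) and codon 285 of Camk2g (chr14:20760415-20760453, minus strand).
Camk2b: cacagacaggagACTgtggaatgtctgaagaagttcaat
Camk2d: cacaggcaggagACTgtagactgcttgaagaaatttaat
Camk2g: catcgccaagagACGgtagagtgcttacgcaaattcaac
Of these 39 bases, 7 differ between Camk2b and Camk2d, 15 between Camk2b and Camk2g and 12 between Camk2d and Camk2g. Over the whole coding sequences of the 10 members, compared as 45 pairs, the longest identical run was 32 bases, between Camk2a and Camk2b.

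Levels of different genes were compared per kb of exon. Taking the union of all annotated exons as the length, the mean over 5 libraries was 180 CPM per kb for Camk2a, 102 for Camk2b, 68.6 for Camkk1, 23.1 for Camk1d, 22.3 for Camk2g, 17.7 for Camk4, 11.5 for Camk1g, 11.0 for Camkk2, 5.37 for Camk1 and 3.15 for Camk2d. Camk2a, Camk2b and Camkk1 did not overlap in their ranges over libraries (163 to 192, 83.8 to 118 and 59.2 to 83.5 CPM per kb), although the ranges of Camk2b and Camkk1 almost met. Ranges overlapped between Camk1d and Camk2g, between Camk2g and Camk4, between Camk1g and Camkk2 and between Camk1 and Camk2d. The order depends on the length used. With the longest coding transcript as length, Camk2a, Camk2b and Camkk1 were still the highest, at 271, 230 and 74.7 CPM per kb, but Camk2d, whose exon union spans 22493 bp against 5524 bp for that transcript, came to 12.8 CPM per kb, and Camk1 to 21.4.

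**Figure D2:**
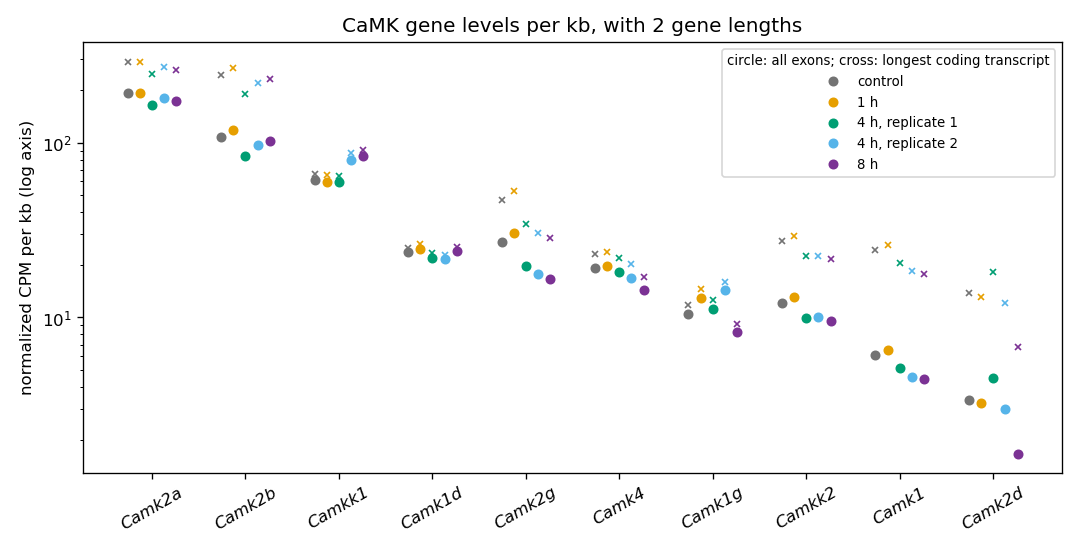
Normalized CPM per kb (log axis) of the CaMK genes in each of the 5 libraries, ordered by their mean. Circles use all annotated exons as length and crosses the longest coding transcript. Camk2a is highest by both lengths (means 180 and 271 CPM per kb).

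The make-up of the CaMKII message was followed as each gene's share of the 4 Camk2 genes per kb. Camk2g made up 8.18% in the control, then 8.85% at 1 h, 7.29% and 5.94% at 4 h, with 5.63% at 8 h. Camk2d made up 1.02%, 0.942%, 1.66%, 1.00% and 0.566% in the same order. Shares depend on the length used, and with the longest coding transcript those of Camk2d were 2.32%, 2.12%, 3.75%, 2.28% and 1.28%. Alpha and beta together remained the bulk of the message in every library, and the Camk2a share reached its highest value, 60.6%, in replicate 2 at 4 h (50.9% by the longest coding transcript, also its highest). The share of Camk2g in the raw Camk2 counts was 6.49% in the control (exact binomial 95% interval 6.28% to 6.70%) and 4.46% at 8 h (4.27% to 4.67%). These intervals cover counting error only, with 1 library on each side. The per-kb ratio of Camk2a to Camk2b was 1.79 in the control (1.76 to 1.82), then 1.63 at 1 h, 1.95 and 1.87 at 4 h, with 1.69 at 8 h. Relative to the control these ratios were 0.913, 1.09, 1.04 and 0.946, values that do not depend on the length used. The ratio was thus below the control at 1 h and 8 h and above it in both 4 h libraries, by less than 10% each time.

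Of the upstream kinases, Camkk1 was at 227 CPM in the control, then 223 at 1 h, 221 and 298 at 4 h, with 311 at 8 h. Replicate 2 at 4 h and the 8 h library were above the control, at 131% and 137%, while replicate 1 at 4 h was at 97.2%. Its 8 h log2 fold change was 0.45 (SE 0.257, adjusted p = 1.00 by edgeR). At 4 h it was 0.19 (SE 0.224), and without replicate 2 it was -0.04, so the value at 4 h rests on that library. Camkk2 was at 133 CPM in the control, then 143 at 1 h, 109 and 110 at 4 h, with 105 at 8 h. It was below the control in all 3 later libraries, and the 4 h replicates agreed within 1.01-fold. Its log2 fold change was -0.28 at 4 h (SE 0.158) and -0.34 at 8 h (SE 0.185), with adjusted p values of 0.540 and 1.00 by edgeR.

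Counts of Camkk1 were 1.71 times those of Camkk2 in the control (exact binomial 95% interval 1.63 to 1.79), 1.56 times at 1 h, 2.03 and 2.71 times at 4 h, with 2.97 times at 8 h (2.82 to 3.13). This ratio was chosen after the values of both genes had been seen. It needs no scaling between libraries, and it was above the control in both 4 h libraries and at 8 h, where it was 1.74 times the control ratio. It was not tested across replicates.

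**Figure D3:**
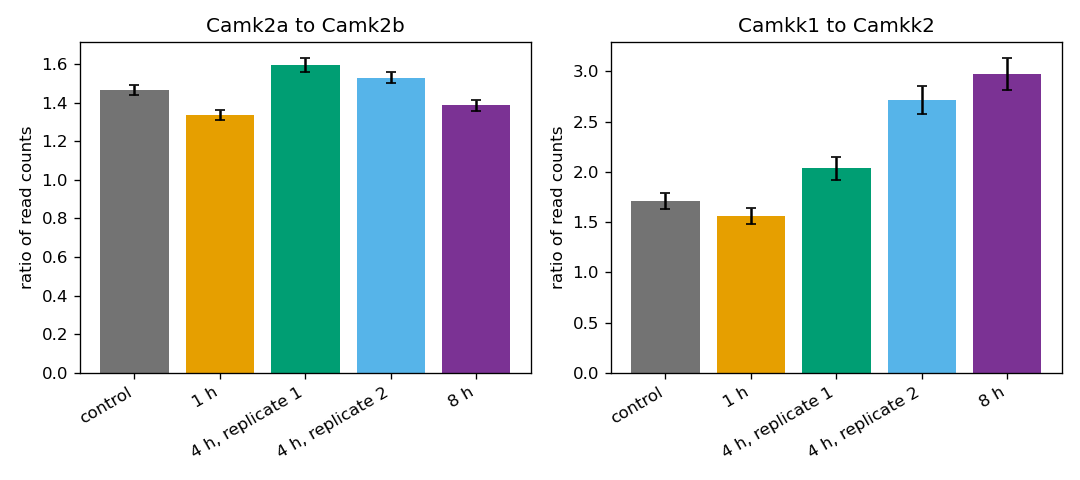
Ratio of read counts of Camk2a to Camk2b and of Camkk1 to Camkk2 in each library, with exact binomial 95% intervals that cover counting error only. The Camk2a to Camk2b ratio stays between 1.34 and 1.59, and the Camkk1 to Camkk2 ratio runs from 1.56 at 1 h to 2.97 at 8 h.

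The 250 bases before the RefSeq start of Camkk1, Camkk2 and Camk2d are printed because Camkk1 and Camkk2 lay on opposite sides of the control at 1 h, in replicate 2 at 4 h and at 8 h, though not in replicate 1, and Camk2d had the lowest ratio of any member. The windows are from RefSeq (GRCm38.p6) and were read for 7 of the 10 members. Camk2a and Camk4 were left out, and Camk2g had no entry. Camkk1 lies at chr11:73018738-73018987 (plus strand), Camkk2 at chr5:122779411-122779660 (minus strand) and Camk2d at chr3:126596701-126596950 (plus strand). The Camkk1 window holds 104 bases of an exon of the noncoding gene 4732414G09Rik, the Camkk2 window 136 bases of an exon of Gm43684, and the Camk2d window no annotated exon. In GENCODE M21 Camk2d starts further upstream, at chr3:126596302, so its window begins 399 bases inside the gene as annotated there. Capitals mark the half-site of the cyclic AMP response element (TGACG), searched on both strands.
Camkk1: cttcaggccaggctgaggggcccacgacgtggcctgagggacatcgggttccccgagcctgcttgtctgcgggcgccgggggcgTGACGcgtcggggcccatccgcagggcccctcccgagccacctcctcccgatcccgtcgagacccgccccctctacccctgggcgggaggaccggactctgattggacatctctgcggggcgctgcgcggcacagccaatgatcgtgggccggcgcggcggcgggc
Camkk2: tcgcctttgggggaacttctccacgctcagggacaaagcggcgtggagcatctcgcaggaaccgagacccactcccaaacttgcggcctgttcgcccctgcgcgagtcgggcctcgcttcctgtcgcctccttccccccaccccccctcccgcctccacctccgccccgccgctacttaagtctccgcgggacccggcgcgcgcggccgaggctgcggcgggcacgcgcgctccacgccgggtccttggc
Camk2d: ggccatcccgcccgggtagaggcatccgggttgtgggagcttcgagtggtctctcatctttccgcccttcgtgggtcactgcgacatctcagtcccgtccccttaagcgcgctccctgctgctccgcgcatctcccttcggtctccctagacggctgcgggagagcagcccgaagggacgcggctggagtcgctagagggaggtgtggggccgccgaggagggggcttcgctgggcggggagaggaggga
Among the 8 windows of these 7 members, 2 held this half-site (Camkk1 and Camk1), and 17.8% of 32851 windows of all genes held it. The AP-1 site (TGACTCA or TGAGTCA, the first of which shares the letters TGAC with the half-site) was in 0 of the 8 windows and in 4.46% of all windows. These matches describe letters in the window only.

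Next in the cascade stand the kinases that CaMKK activates. Camk4, a kinase of the nucleus that phosphorylates CREB, was at 62.8 CPM in the control, then 64.6 at 1 h, 59.3 and 55.1 at 4 h, with 46.5 at 8 h. It was closest to the control at 1 h and lowest at 8 h, at 74.2% of the control (exact binomial 95% interval 67.8% to 81.1%). Its 8 h log2 fold change was -0.43 (SE 0.207, unadjusted p = 0.0875 by edgeR). With library size alone as scaling, the small value of Camk4 at 1 h changed sign, from 0.041 to -0.032.

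Camk1, the gene of CaMKI alpha, was at 36.5 CPM in the control, then 39.0 at 1 h, 30.8 and 27.4 at 4 h, with 26.6 at 8 h. All 3 later libraries were below the control, at 84.2%, 75.1% and 72.8% of it. The log2 fold change was -0.33 at 4 h (SE 0.211) and -0.46 at 8 h (SE 0.247). On the opposite strand, exons of Ogg1 lie over 3.88% of the exon bases of Camk1. Since the strand setting of the counting is not given, it is not known whether reads there were assigned by strand or set aside as ambiguous. The same holds for 2.21% of the exon bases of Camk4, which lie under exons of another gene.

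Camk1d, the gene of CaMKI delta, was at 175 CPM in the control, then 184 at 1 h, 162 and 160 at 4 h, with 177 at 8 h. Both 4 h libraries were below the control by less than 10%, and the 1 h and 8 h libraries were slightly above it.

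Camk1g, the gene of the membrane-anchored CaMKI gamma, was at 29.0 CPM in the control, then 35.8 at 1 h, 30.9 and 39.4 at 4 h, with 22.7 at 8 h. It was above the control at 1 h and in both 4 h libraries and below it at 8 h, at 123%, 107%, 136% and 78.2% of the control. The log2 fold changes were 0.30 at 1 h (SE 0.280), 0.28 at 4 h (SE 0.245) and -0.35 at 8 h (SE 0.282), each little larger than its standard error. No other member was above the control in both 4 h libraries, and with library size alone as scaling replicate 1 of Camk1g was below it too (log2 ratio -0.084).

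Across the 10 members, 7 were above the control at 1 h (all but Camk4 of these also with library size alone), 7 were below it in both 4 h libraries and 8 were below it at 8 h. Camk2a, Camk2b, Camk2g, Camk4, Camk1 and Camkk2, 6 members, were below the control in all 3 later libraries, as were 27.3% of all genes tested and 31.3% of the 9976 genes with a mean of at least 10 CPM. At 1, 4 and 8 h the members had median log2 fold changes of 0.08, -0.15 and -0.35, against -0.0050, 0.0098 and 0.0091 over all 19768 genes.

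None of the 10 members was called at an adjusted p under 0.05 by edgeR at 1 h, 4 h or 8 h, and the share of all genes called was 0%, 0.00506% and 0%. DESeq2 called 0 members too, and 0.308%, 1.63% and 0.189% of all genes it tested. In the test of the 3 time points together edgeR called 0 members and 0.0101% of genes. At an unadjusted p under 0.05, edgeR gave 0 members at 1 h (2.1% of all genes higher, 0.319% lower), 1 lower member at 4 h, Camk2g (7.21% of genes higher, 4.38% lower), and 2 lower members at 8 h, Camk2g and Camk2d (2.39% of genes higher, 2.12% lower). By the fold rule, 0 members were past 1.5-fold from the control at 1 h (10.9% of genes higher, 9.2% lower) or in both 4 h libraries (10.1% higher, 6.28% lower). At 8 h, 2 members were past 1.5-fold lower and 0 higher (8.94% and 14.1% of genes). Of genes with a mean of at least 10 CPM, 3.99% were past 1.5-fold lower at 8 h. In replicate 2 at 4 h taken alone, 1 member (Camk2g) was past 1.5-fold lower and 0 higher (10.7% and 13.8% of genes), and in replicate 1 alone 0 were past it in either direction (16.8% of genes lower, 21.1% higher). With library size alone as scaling, 1 member, Camk2g, was past 1.5-fold lower in both 4 h libraries (log2 ratios -0.62 and -0.69) and 0 were past it higher (9.07% and 8.35% of genes), and this scaling moved the median of all genes at 4 h from 0.0098 to -0.111.

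Genes whose pattern was most like that of a member were found by the root mean square difference of the log2 ratio to the control over the 4 kainic acid libraries, among 9975 other genes with a mean of at least 10 CPM. For each member the 3 nearest are given. For Camk2a they were Rnf157, Mnat1 and Washc2 (differences of 0.02 each), for Camk2b Pip4k2c, Tafa1 and Man2a2 (0.03, 0.04 and 0.04), and for Camk2g Csgalnact1, Tmem144 and Carmil1 (0.05, 0.06 and 0.07). Those of Camk2d were the farthest, Tafa2, Camk2n2 and Slc25a18 (0.09, 0.11 and 0.12). For Camk1 they were Cntnap1, Elmod1 and Eif1b (0.04 each), for Camk1d Sptb, Olfml3 and Zfp101 (0.03 each), for Camkk2 Pik3r1, Aig1 and Umad1 (0.02, 0.03 and 0.04), and for Camk4 Brsk1, Appl2 and Crim1 (0.02, 0.02 and 0.03). For Camk1g they were Ndrg1, Fa2h and Cnp (0.06, 0.07 and 0.07), and for Camkk1 Cd151, Gm6789 and Tmem60 (0.02, 0.07 and 0.07).

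Around the kinases, 32 genes in 7 lists were read out, from calmodulin to the substrates. None was called by edgeR or by DESeq2 at any time point. At an unadjusted p under 0.05, edgeR gave 1 higher and 0 lower genes at 1 h (2.1% and 0.319% of all genes), 2 higher and 2 lower at 4 h (7.21% and 4.38%), and 1 higher and 2 lower at 8 h (2.39% and 2.12%). The median log2 fold change of the 32 genes was 0.03, -0.08 and -0.08 at 1, 4 and 8 h. By the fold rule, 7 of the 32 genes were past 1.5-fold at 1 time point or more, against 38.5% of all genes tested and 17.2% of genes with a mean of at least 10 CPM.

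Calmodulin, the calcium sensor shared by all these kinases, was read out through Calm2 and Calm3. Calm2 lay between 1354 and 1473 CPM and Calm3 between 1354 and 1578 CPM. Nrgn, whose product neurogranin binds calmodulin when calcium is low, was at 159 CPM in the control and between 140 and 167 CPM after kainic acid. Gap43, which codes for a calmodulin-binding protein of growth cones, was at 111 CPM in the control, then 102 at 1 h, 121 and 107 at 4 h, with 60.2 at 8 h. Its 8 h library was thus well below the other 4.

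Of the inhibitor genes of CaMKII, Camk2n1 was at 356 CPM in the control, then 398 at 1 h, 361 and 296 at 4 h, with 326 at 8 h. Camk2n2 was at 16.5 CPM in the control, then 16.9 at 1 h, 21.1 and 14.6 at 4 h, with 9.30 at 8 h, which is past 1.5-fold lower at 8 h. Both inhibitor genes were above the control at 1 h and in replicate 1 at 4 h and below it in replicate 2 and at 8 h. Ppm1f, a phosphatase that removes phosphate from CaMKII, was at 114 CPM in the control, then 97.1 at 1 h, 52.1 and 66.2 at 4 h, with 98.2 at 8 h. It was past 1.5-fold lower in both 4 h libraries (log2 fold change -0.95, SE 0.202, adjusted p = 0.276 by edgeR).

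Among related kinases, Pnck (CaMKI beta) was at 56.8 CPM in the control, then 45.1 at 1 h, 42.0 and 40.9 at 4 h, with 24.5 at 8 h. Every kainic acid library was below the control, and the 8 h library was the lowest (log2 fold change -1.21, SE 0.224, unadjusted p = 0.00226 and adjusted p = 0.868 by edgeR). Camkv, a kinase-like protein of synapses without known kinase activity, was at 659 CPM in the control, then 634 at 1 h, 471 and 548 at 4 h, with 468 at 8 h. Eef2k, the kinase of elongation factor eEF2, was at 39.9 CPM in the control, then 41.8 at 1 h, 26.0 and 34.5 at 4 h, with 40.1 at 8 h.

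Of the nuclear targets, Creb1 lay between 84.6 and 114 CPM. Crem, which includes the inducible repressor ICER, was at 11.8 CPM in the control, then 35.8 at 1 h, 54.6 and 22.2 at 4 h, with 16.3 at 8 h. It was past 1.5-fold higher at 1 h and in both 4 h libraries (log2 fold change 1.69 at 4 h, SE 0.571, adjusted p = 0.383 by edgeR). Crtc1, a coactivator of CREB, was at 71.3 CPM in the control, then 63.9 at 1 h, 40.2 and 45.8 at 4 h, with 70.4 at 8 h, past 1.5-fold lower in both 4 h libraries. Actn2, whose product binds CaMKII at the synapse, was at 11.7 CPM in the control, then 9.05 at 1 h, 7.30 and 8.14 at 4 h, with 6.62 at 8 h.

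**Figure D4:**
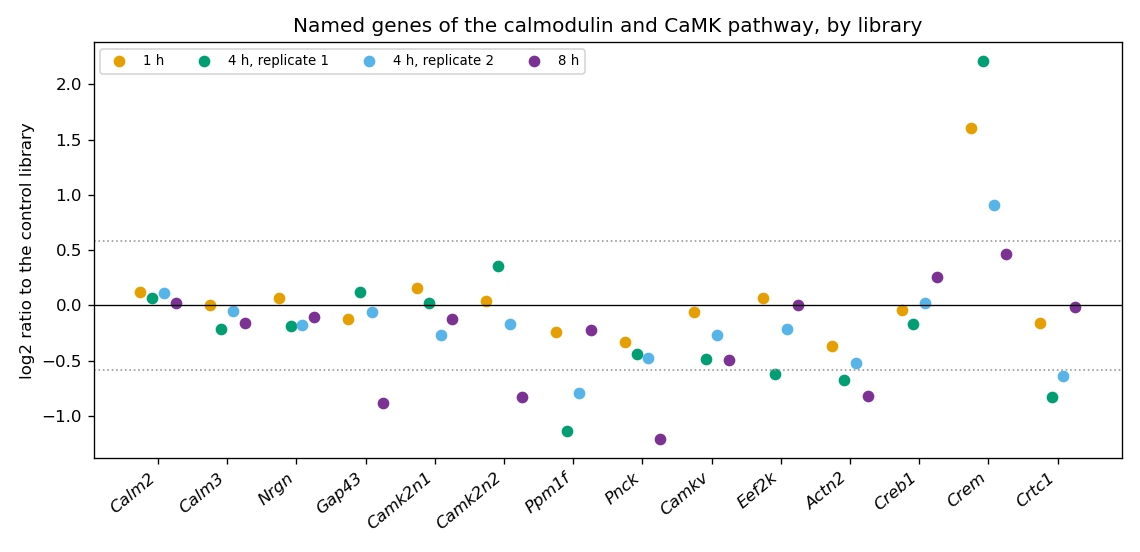
Log2 ratio of normalized CPM to the control library for 14 named genes of the calmodulin and CaMK pathway in the 4 kainic acid libraries. Dotted lines mark a 1.5-fold difference. Crem is above the upper line at 1 h and 4 h, and Pnck, Gap43, Camk2n2 and Actn2 are below the lower line at 8 h.

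Markers of cell types differed between libraries as well. The 3 excitatory neuron markers summed to 795 CPM in the control, then 771 at 1 h, 580 and 651 at 4 h, with 688 at 8 h, with Slc17a7 the most abundant. This sum was below the control in all 4 kainic acid libraries and lowest at 4 h. The 6 members Camk2a, Camk2b, Camk2g, Camk4, Camk1 and Camkk2 were also below the control in both 4 h libraries and at 8 h, but at 1 h all of them except Camk2a were above it. The 4 pan-neuronal markers, of which Map2 was the most abundant, summed to 4599, 4850, 5414, 4718 and 4509 CPM. At 4 h Map2 was above the control (2465 and 2094 against 1729 CPM), while Rbfox3 (82.0 and 82.4 against 119 CPM) and Syt1 (1216 and 1121 against 1314 CPM) were below it. At 8 h Map2 was above the control (2033 CPM), and Rbfox3 (93.0 CPM), Syt1 (1092 CPM) and Snap25 (1291 against 1437 CPM) were below it. The 3 CA1 pyramidal cell markers, led by Mpped1, summed to 383, 350, 273, 313 and 299 CPM. Mpped1 and Fibcd1 were below the control in all 4 kainic acid libraries. Wfs1 was above the control in replicate 2 at 4 h (88.5 against 84.7 CPM) and below it in the other kainic acid libraries. The 4 oligodendrocyte markers, led by Mbp, summed to 2581, 3156, 2980, 3807 and 2377 CPM. Both this sum and the pan-neuronal sum were above the control in the same 3 libraries as Camk1g, and below it at 8 h. The 4 astrocyte markers, of which Slc1a3 was the most abundant in the control, summed to 922, 1014, 1519, 1355 and 1356 CPM. Most of the difference from the control at 4 h and 8 h was Gfap, at 221 CPM in the control, then 272 at 1 h, 596 and 510 at 4 h, with 587 at 8 h. Aqp4 was at 133 CPM in the control, then 214 and 177 at 4 h, with 129 at 8 h, and Aldh1l1 at 58.8 CPM in the control, then 84.9 and 76.9 at 4 h, with 61.3 at 8 h. DESeq2 called Gfap higher at 4 h and 8 h (adjusted p = 0.000656 and 0.0137), and edgeR called none of the markers at any time point. The 3 inhibitory neuron markers, led by Gad1, summed to 391, 448, 694, 574 and 411 CPM, although Slc32a1 (31.6, 27.4, 28.2, 39.2 and 25.7 CPM) was below the control at 1 h, in replicate 1 at 4 h and at 8 h. The part of these differences in the CaMK values was not tested.

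Dentate granule cell markers summed to 162, 161, 187, 145 and 204 CPM and CA3 markers to 132, 144, 121, 140 and 124 CPM. Microglia markers summed to 70.0, 71.1, 44.2, 48.1 and 62.3 CPM and endothelial markers to 67.3, 67.5, 107, 63.6 and 80.7 CPM. Dsp, Cpne4, Cx3cr1 and Flt1 were the most abundant of these lists in the control. At 4 h the microglia genes P2ry12 (ratios to the control 0.436 and 0.558) and Cx3cr1 (0.778 and 0.754) were below the control. Aif1 was near it (0.989 and 0.945), and Itgam was on both sides (0.804 and 1.07). In replicate 2 at 4 h the endothelial gene Pecam1 was above the control (15.2 against 13.1 CPM). Cldn5 (9.94 against 14.1 CPM) and Flt1 (38.5 against 40.1 CPM) were below it there. Genes of the dentate list lay on opposite sides of the control at 4 h. Prox1 was at 60.0 CPM in the control, then 172 and 120 at 4 h, Dsp at 72.2, then 4.34 and 13.6, and C1ql2 at 29.3, then 11.0 and 11.7. At 8 h C1ql2 (58.1 CPM) and Prox1 (77.1 CPM) were above the control and Dsp (68.5 CPM) was below it. At 4 h DESeq2 called Prox1 higher (adjusted p = 0.0157) and C1ql2 lower (adjusted p = 0.0324), as well as the excitatory neuron marker Neurod6 lower (adjusted p = 0.0130). The 3 choroid plexus markers, led by Ttr, summed to 3894, 1642, 26.0, 4143 and 3010 CPM, so replicate 1 at 4 h held far less of this tissue's message than the other libraries. None of the markers was at 0 in any library. Camk2d was above the control in replicate 1 at 4 h and in no other library, and Camkk1 was above it in replicate 2 and at 8 h. Whether the amount of choroid plexus in a dissection bears on this was not tested.

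**Figure D5:**
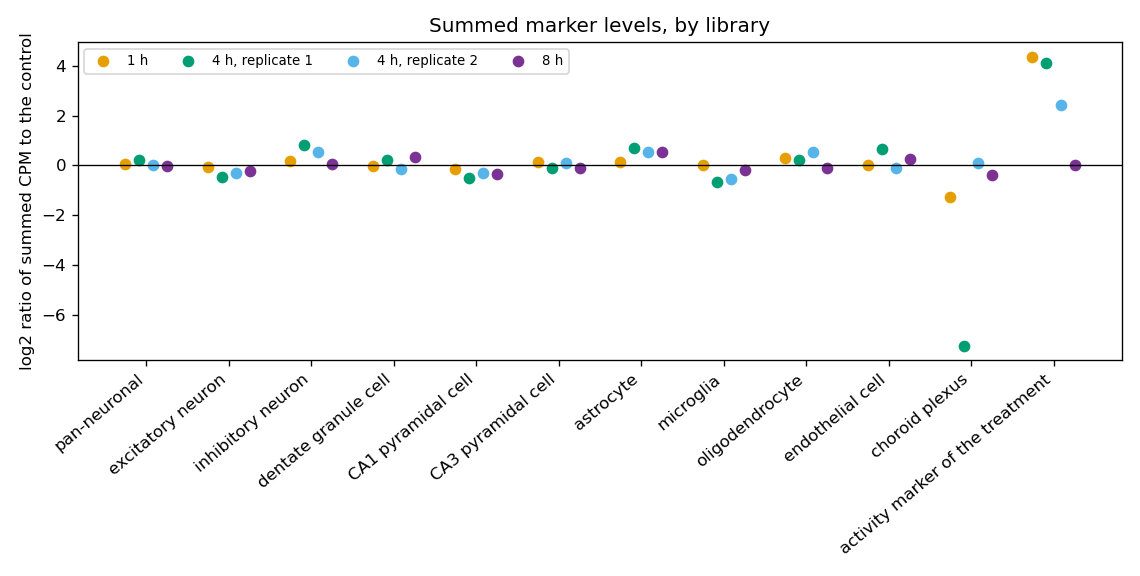
Log2 ratio of the summed normalized CPM of each marker list to the control library, for the 4 kainic acid libraries. The choroid plexus sum in replicate 1 at 4 h (26.0 CPM against 3894 in the control) lies farthest from 0, and the activity marker sum is above the control at 1 h and in both 4 h libraries.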

How the data were processed

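Stranded libraries were made from total RNA by the authors, who aligned the reads with STAR 2.5.1b to GRCm38.p4 (version and build per the submitters' processing notes) and deposited raw counts per gene made with HTSeq. Neither the strand setting nor the release of the annotation is stated in these sources. Reads on no gene made up 24.7%, 29.0%, 33.1%, 25.3% and 30.9% in the control, 1 h, 4 h replicate 1 and 2, and 8 h libraries. Such lines were left out.

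The analysis of counts used edgeR 4.0.16 under R 4.3.3: filterByExpr, TMM factors, a quasi-likelihood fit with the 4 conditions as groups (1 residual degree of freedom), Benjamini-Hochberg adjustment over all genes tested, a threshold of 0.05 and a prior count of 2. Standard errors were the unshrunk coefficient divided by the root of its F value. The code was tested on simulated data. Alternatives were RLE factors, library size alone, no filter, DESeq2 1.42.0, another gene length and leaving out each 4 h library. Intervals (95%) used scipy 1.17.1 in Python 3.11.15, and figures matplotlib 3.10.9. Gene lengths and positions are from GENCODE M21, in which 55144 of 55385 identifiers were found.

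Named genes were all members and 10 pathway genes set by name. Also named was any gene of the pathway lists past 1.5-fold in both 4 h libraries or at 1 h or 8 h. This rule was not applied to the marker lists. Members and lists were chosen with earlier results of these data known. A further list gene is not reported here.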

Additional observations from a re-analysis of the deposited data

How the results depend on the processing

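Of the 30 log2 fold changes of members (10 genes at 3 time points), all kept their direction and their side of the threshold with RLE factors and with DESeq2. With library size alone 29 did, and Camk4 at 1 h reversed (-0.032). With no filter 29 did, and Camk2d at 8 h passed the threshold (-1.04), so that CaMK genes called at 8 h numbered 1. The cause was not tested. Genes called at 1, 4 and 8 h and over the 3 time points together numbered 0, 0, 0 and 0 with RLE factors, 57, 237, 22 and 338 with library size alone, 285, 1300, 279 and 1761 with no filter, and 50, 234, 33 and 310 with DESeq2, against 0, 1, 0 and 2. The alternatives of the joint test, and the single-library counts that follow, were chosen after seeing the data. Without replicate 1 or replicate 2 at 4 h, members past 1.5-fold at 4 h numbered between 0 and 1. Leaving out 1 of these libraries leaves no residual degrees of freedom, so the fold changes were then values with no test: Camk2d at 4 h moved to -0.18 without replicate 1 and Camkk1 to -0.04 without replicate 2, each by more than its standard error. With the longest coding transcript as length, 7 of 10 levels per kb moved out of their range over libraries, and the Camk2a to Camk2b ratio per kb in the control was 1.19 by that length. No paired analysis was possible because only the 4 h condition has 2 replicates. With 1 library in 3 of 4 conditions, differences at 1 h and 8 h have no replicate check.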
